A study of Homo sapiens with 4 samples.

Results

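The genes described are MDM2, MDM4 and PPM1D, which restrain p53, and GADD45A, BAX, BBC3, SESN1, SESN2 and SESN3, which belong to the stress responses that p53 switches on. They were chosen by symbol, and all 9 are among the 26830 genes of the table. The study sequenced RNA after immunoprecipitation (RIP-seq) from U2OS, an osteosarcoma line with wild-type p53, to find transcripts bound by QKI7, a splice isoform of the RNA-binding protein QKI. All 4 libraries came from cells that carried a lentiviral Flag-tagged QKI7 construct, were selected for GFP and received no other treatment. The 2 input libraries are RNA of the ultraviolet cross-linked, sonicated lysate, and the 2 Flag-RIP libraries are RNA recovered from it with a Flag antibody. Neither a control precipitation nor untagged cells were analysed here, so recovery through QKI7 and recovery by the antibody or beads alone cannot be told apart. The labels do not say whether the replicates were separate cultures, and p-values therefore measure only the spread between these libraries, which may be technical.

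As background, p53 is a transcription factor that is kept scarce in unstressed cells. MDM2 is the ubiquitin ligase that marks it for degradation, MDM4 (MDMX) is a related protein that binds it and blocks its activity, and PPM1D (WIP1) is a phosphatase that reverses its activating phosphorylation. MDM2 and PPM1D are themselves p53 targets and so close feedback loops. Among the other targets, GADD45A acts in growth arrest, BAX and BBC3 (PUMA) act in mitochondrial apoptosis, and the sestrins restrain the growth kinase mTORC1 and limit oxidative damage. SESN3 is better known as a target of FOXO factors. QKI binds RNA at ACUAAY elements and acts in splicing, RNA stability and translation.

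Values are TPM, a length-normalised share of each library, so levels of different genes can be set side by side. QKI, which holds any reads of the construct, had 3.83 and 5.85 TPM in the inputs and 60.72 and 41.99 TPM in the Flag-RIP libraries. COL1A1, a bone matrix collagen, had 53.75 to 116.44 TPM over the 4 libraries and the mesenchymal filament gene VIM 140.5 to 278.68 TPM. The epithelial marker EPCAM was between 0.18 and 0.58 TPM and the blood cell marker PTPRC at 0.01 TPM or less, whereas the epithelial keratin KRT18 reached 68.48 TPM and the collagen gene COL1A2 stayed at or below 0.34 TPM. Spike-in RNAs took 2.78% and 3.89% of the TPM in the inputs and 18.9% and 25.6% in Flag-RIP. Over the 10415 tested genes, the medians of the Flag-RIP libraries lay 1.32 log2 units above those of the inputs, and the median ratio of mean TPM was 3.32. Changes below are therefore given on log2(TPM + 1) with the library medians made equal. Such a centred change had a median of -0.11 over all tested genes. By limma at an adjusted p under 0.05, the higher calls in Flag-RIP made up 16.4% of tested genes on this scale and the lower calls 24.4%.

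In TPM as deposited, all 9 genes were higher in both Flag-RIP libraries than in both inputs, which was also true of 96.7% of tested genes. The centred changes separated them. MDM2, MDM4 and SESN3 were called higher in Flag-RIP, SESN2 was called lower, and PPM1D, GADD45A, BAX and BBC3 were not called. SESN1 was too scarce for the test. Of the 8 tested genes, MDM4 and SESN3 had a mean input below 1 TPM and passed the filter on low values through their Flag-RIP levels, as did 32.5% of all tested genes.

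**Figure D1:**
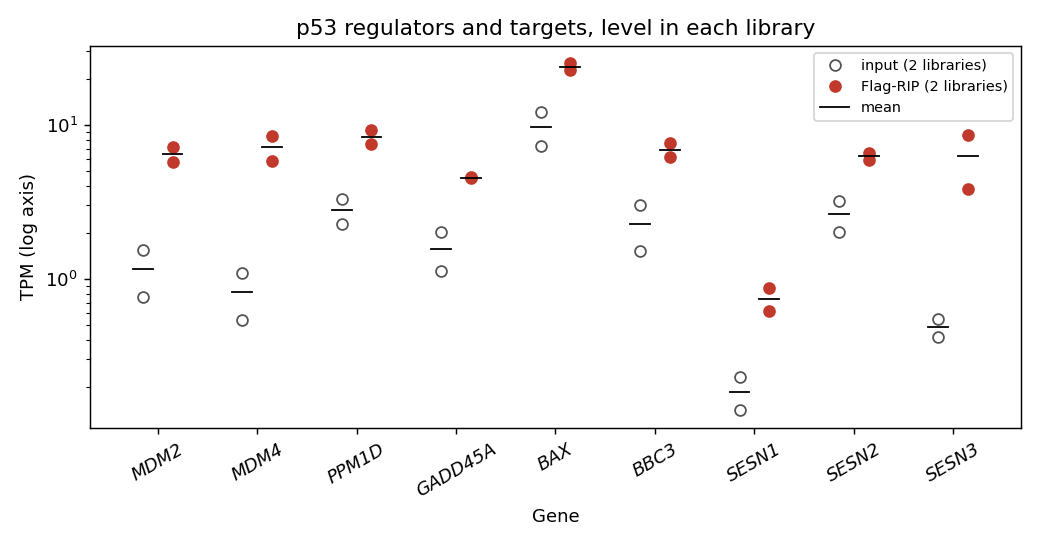
TPM of the 9 genes (log axis) in the 2 input libraries (open circles) and the 2 Flag-RIP libraries (filled circles), with the mean of each group as a bar. Every gene was higher in both Flag-RIP libraries. MDM2, MDM4 and SESN3, which were among the 4 scarcest in input, reached mean levels close to those of BBC3 and SESN2. In Flag-RIP replicate 2, however, SESN3 was lower, at 3.83 TPM against 6.16 TPM for BBC3 and 5.94 TPM for SESN2.

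The 2 MDM genes were both recovered above the typical transcript. MDM2, on chromosome 12 from 68808172 to 68850686 (GRCh38), had 0.76 and 1.55 TPM in the inputs and 7.2 and 5.77 TPM in Flag-RIP. Its mean rose from 1.16 ± 0.56 to 6.49 ± 1.01 TPM (SD, n = 2 libraries each), a ratio of 5.61. The groups did not overlap, also after centring, as for 29.4% of tested genes in this direction. The centred change was 0.50 (SE 0.11, limma adjusted p = 0.0119).

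MDM4, on chromosome 1 from 204516406 to 204558120, had 0.54 and 1.1 TPM in the inputs and 8.49 and 5.82 TPM in Flag-RIP. It was scarcer than MDM2 in each input library and more abundant in each Flag-RIP library. Its mean went from 0.82 ± 0.40 to 7.16 ± 1.89 TPM (SD, n = 2 each), a ratio of 8.73, and the centred change was 0.84 (SE 0.14, limma adjusted p = 0.00381). This was the smallest adjusted p of the 8 genes in this fit, but MDM4 entered the test only through its Flag-RIP levels. Per unit of MDM2 TPM, the MDM4 TPM stood at 0.711 and 0.710 in input and at 1.18 and 1.01 in Flag-RIP. The difference of this log2 ratio, 0.62, could not be tested firmly, since the exact two-sided permutation test of 2 libraries against 2 gave p = 0.333, the smallest it allows.

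The call of MDM2 needed both inputs and that of MDM4 needed input replicate 1, while both changes kept their sign without either input. Without input replicate 1 the centred change was 0.43 for MDM2 (limma adjusted p = 0.168) and 0.82 for MDM4 (0.0688). Without input replicate 2 the change of MDM2 was 0.57 (0.0718), and MDM4 still passed. Scaled to the spike-ins, MDM2 had -0.13 (limma adjusted p = 0.668) and MDM4 0.36 (0.234). The library medians were not made equal there, and both genes lay above the median change of all tested genes, -0.758.

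PPM1D, the phosphatase of this feedback loop, was not called after centring. It lies on chromosome 17 from 60600193 to 60666280 and had 2.28 and 3.33 TPM in the inputs and 9.28 and 7.5 TPM in Flag-RIP. The means were 2.81 ± 0.74 and 8.39 ± 1.26 TPM (SD, n = 2 each), a ratio of 2.99, close to that of the median gene. After centring, the 2 groups overlapped and the change was -0.0067 (SE 0.11, limma adjusted p = 0.967). Whether the change of PPM1D differed from those of MDM2 and MDM4 was not tested.

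**Figure D2:**
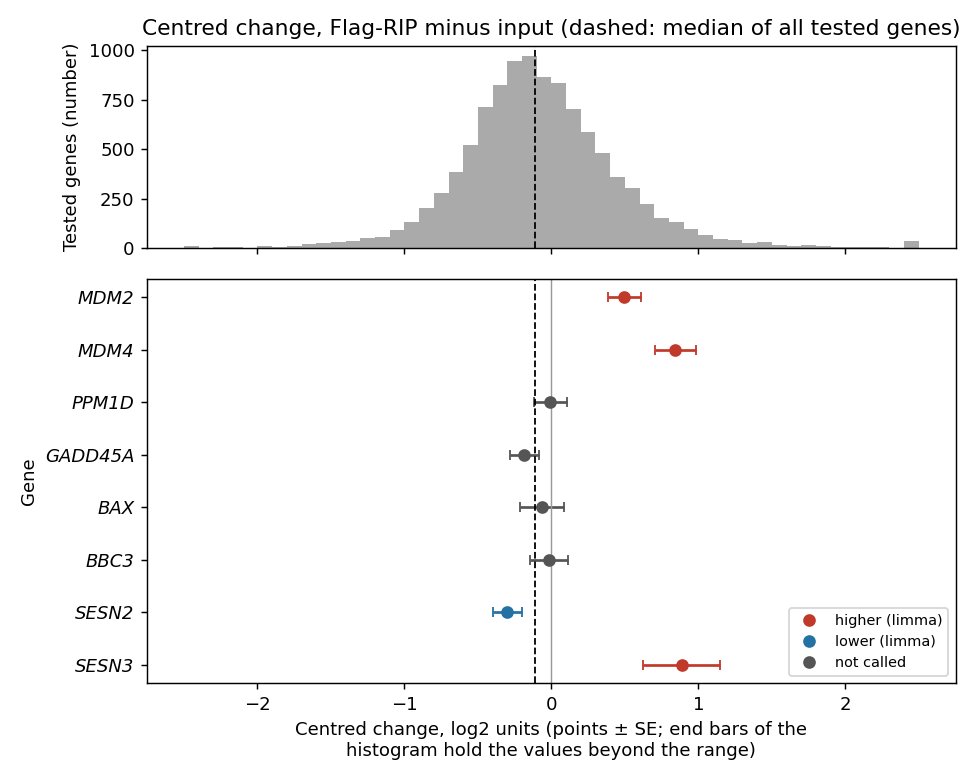
Upper panel, number of tested genes by centred log2 change (Flag-RIP minus input). Lower panel, centred change ± SE of the 8 tested genes, with 0 as a solid line and the median of all tested genes as a dashed line. MDM2, MDM4 and SESN3 lie between 0.50 and 0.89, SESN2 lies at -0.30, and the other 4 lie between -0.18 and 0.

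Among the sestrins, SESN3 was called higher after centring and SESN2 was called lower, at a change not far below the median of all tested genes. SESN3, on chromosome 11 from 95165513 to 95232475, had 0.42 and 0.55 TPM in the inputs and 8.66 and 3.83 TPM in Flag-RIP. Its mean rose from 0.485 ± 0.092 to 6.25 ± 3.42 TPM (SD, n = 2 each). The ratio of 12.9 was the highest of the 9 genes. The centred change was 0.89 (SE 0.26, limma adjusted p = 0.0311). The 2 Flag-RIP libraries differed more for SESN3 than for any other of the 9 genes, yet the groups did not overlap.

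SESN2, on chromosome 1 from 28259518 to 28282491, was the most abundant sestrin in input. It had 2.03 and 3.23 TPM in the inputs and 6.58 and 5.94 TPM in Flag-RIP. The ratio of its means, 2.63 ± 0.85 and 6.26 ± 0.45 TPM (SD, n = 2 each), was 2.38, the lowest of the 9 genes. After centring, both Flag-RIP libraries lay below both inputs, as for 47.3% of tested genes. The centred change was -0.30 (SE 0.10, limma adjusted p = 0.0459), just past the threshold.

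SESN1 lies on chromosome 6 from 108984309 to 109094846 and was the scarcest of the 9 genes. It had 0.14 and 0.23 TPM in the inputs and 0.62 and 0.87 TPM in Flag-RIP. Its mean over the 4 libraries, 0.465 TPM, was below the filter of 1, so it has no test in the main comparison. The plain ratio was 4.03. In a fit with no filter on low values, its centred change was -0.20 (limma adjusted p = 0.155), where the median of the 23463 genes was -0.15. The other members lay higher in that fit, from 0.26 (SESN2) to 1.44 (SESN3). Adding 1 to the TPM shrinks the fold of so scarce a gene.

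The shares of SESN2 and SESN3 in the sestrin transcripts did not overlap between input and Flag-RIP. SESN2 made up 78.4% and 80.5% of the summed sestrin TPM in the inputs and 41.5% and 55.8% in Flag-RIP. SESN3 made up 16.2% and 13.7% in the inputs and 54.6% and 36% in Flag-RIP, so it was the leading sestrin in Flag-RIP replicate 1 but not in replicate 2. SESN1 stayed between 3.91% and 8.18% in all 4 libraries. The log2 ratio of SESN3 to SESN2 was 2.30 higher in Flag-RIP, for which the exact two-sided permutation test gave p = 0.333, again the smallest possible. These shares do not depend on how the libraries are scaled. The pair joins the genes with the highest and the lowest plain ratio of the set, so its separation adds no support of its own. Such a separation was also not particular to this pair. The ratio of SESN1 to SESN2 was 0.069 and 0.071 in input and 0.094 and 0.146 in Flag-RIP. That of BBC3 to BAX was 0.208 and 0.252 in input and 0.305 and 0.271 in Flag-RIP. Each also had p = 0.333 by the exact permutation test. How often other gene pairs separate in this way was not examined.

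The calls of single sestrins were less firm. SESN3 did not pass without input replicate 1 (centred change 1.02, limma adjusted p = 0.128), without input replicate 2 (0.75, 0.179) or with robust variance fitting (0.89, 0.196). Leaving out Flag-RIP replicate 1 gave a change of 0.42 and leaving out replicate 2 gave 1.35, and it passed in both. SESN2 lost its call without input replicate 1 (-0.34, 0.211), without input replicate 2 (-0.26, 0.286) and with the replicate number as a block (-0.30, 0.0705). The call of SESN2 was also lost without a variance trend (limma adjusted p = 0.0754) and with a pseudocount of 5 (-0.10, 0.245). With no filter its change was 0.26 (0.294), in a setting that moved the change of every tested gene up by a common amount (MDM2 to 1.05). With the 20 most abundant rows left out it was -0.0056 (0.989). The library medians were not made equal in that last setting, and SESN2 lay below its median change of all tested genes, 0.446.

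**Figure D3:**
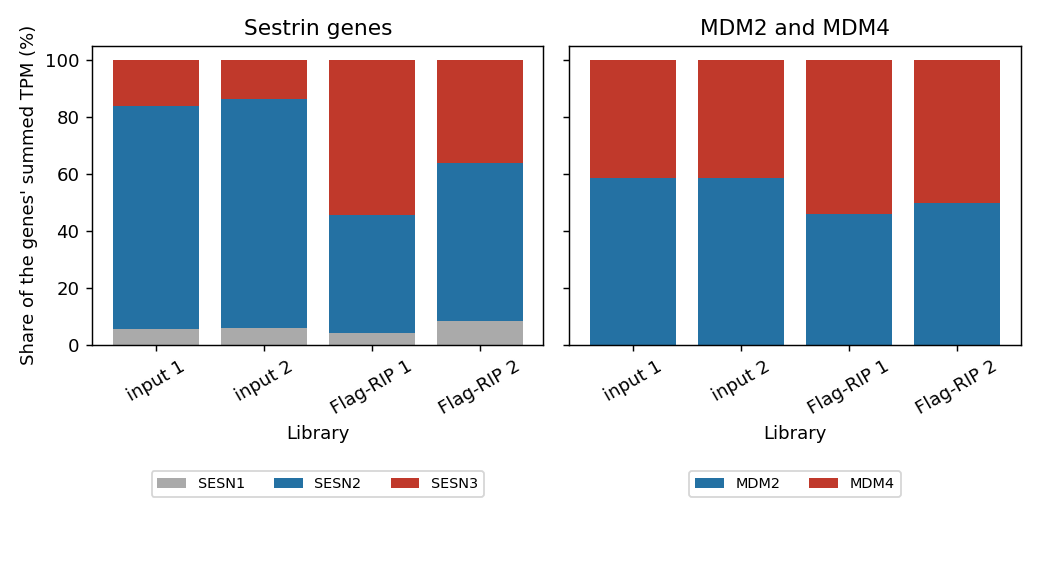
Stacked bars of the share of summed TPM (%) in each of the 4 libraries, for the 3 sestrin genes (left) and for MDM2 and MDM4 (right). SESN3 holds 13.7% and 16.2% of the sestrin TPM in the inputs and 36% and 54.6% in Flag-RIP, and MDM4 goes from 41.5% in both inputs to 54.1% and 50.2%.

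The apoptosis genes BAX and BBC3 and the growth arrest gene GADD45A had plain ratios of 2.47 to 3.03 and were not called after centring. BAX, which permeabilises the mitochondrial outer membrane, lies on chromosome 19 from 48954875 to 48961798 and was the most abundant of the 9 genes in every library. It had 7.34 and 12.06 TPM in the inputs and 25.14 and 22.7 TPM in Flag-RIP, a ratio of means of 2.47. After centring the groups overlapped, and the change was -0.063 (SE 0.15, limma adjusted p = 0.75).

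BBC3 encodes PUMA, a BH3-only protein that triggers BAX, and lies on chromosome 19 from 47220824 to 47232860. It had 1.53 and 3.04 TPM in the inputs and 7.68 and 6.16 TPM in Flag-RIP, a ratio of 3.03. The centred groups overlapped here too, and the change was -0.015 (SE 0.13, limma adjusted p = 0.934).

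GADD45A, a stress sensor of the growth arrest response, lies on chromosome 1 from 67685201 to 67688334. It had 1.12 and 2.01 TPM in the inputs and 4.58 and 4.51 TPM in Flag-RIP, a ratio of 2.90. Both Flag-RIP libraries lay below both inputs after centring, but the change of -0.18 (SE 0.10, limma adjusted p = 0.174) did not pass. As deposited, GADD45A, BAX, BBC3 and PPM1D had changes of 1.13 to 1.31, and each passed, as 92.3% of tested genes did in that direction. Scaled to the spike-ins, the same 4 genes had changes of -0.90 to -1.34 and passed as lower, as did 6306 of the 10415 tested genes. Neither setting makes the library medians equal. The median change of all tested genes was 1.2 as deposited and -0.758 with the spike-ins. The direction of the 4 genes thus depended on the scaling, as that of the median gene did.

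The order of the genes by level changed between the groups. In input, the mean TPM fell from BAX (9.7) through PPM1D (2.81), SESN2 (2.63), BBC3 (2.29), GADD45A (1.57), MDM2 (1.16), MDM4 (0.82) and SESN3 (0.485) to SESN1 (0.185). Between BAX and PPM1D and between SESN3 and SESN1 the ranges of the 2 libraries did not overlap, while all other neighbours in this order did. In Flag-RIP the order was BAX (23.9), PPM1D (8.39), MDM4 (7.16), BBC3 (6.92), MDM2 (6.49), SESN2 (6.26), SESN3 (6.25), GADD45A (4.55) and SESN1 (0.745). Again only the first and the last were set apart from their neighbour by the ranges of the 2 libraries. In the single libraries, MDM4 lay below MDM2, BBC3 and SESN2 in both inputs, above all of them in Flag-RIP replicate 1, and above MDM2 but below BBC3 and SESN2 in replicate 2. SESN3 lay above MDM4 in Flag-RIP replicate 1 and below every gene but SESN1 in replicate 2. Input replicate 1 was below input replicate 2 for all 9 genes and for 96.7% of tested genes, and Flag-RIP replicate 1 was above replicate 2 for 8 of the 9, SESN1 excepted, and for 60.7% of tested genes.

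Ratios were larger for genes that were scarce in input, and MDM2, MDM4 and SESN3 were scarce there. The median ratio was 6.33 for the 1128 tested genes with a mean input of up to 0.5 TPM, 3.88 from 0.5 to 1 TPM, 3.34 from 1 to 2 TPM, 2.89 from 2 to 5 TPM and 2.40 from 5 to 10 TPM. In the lowest ranges this median is raised by the filter, which scarce genes pass only when Flag-RIP is high. Within its own range of input levels, the ratio of MDM4 exceeded that of 96.3% of genes, that of MDM2 exceeded 89.6% and that of SESN3 exceeded 81.4%. The ratios of BAX, BBC3 and PPM1D lay close to the middle of their ranges, with BBC3 above 54.7% and PPM1D above 53.4% of genes. GADD45A lay above 34.6% and SESN2 above 30.0%. The part of the input level in the results for MDM2, MDM4 and SESN3 was not tested further.

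**Figure D4:**
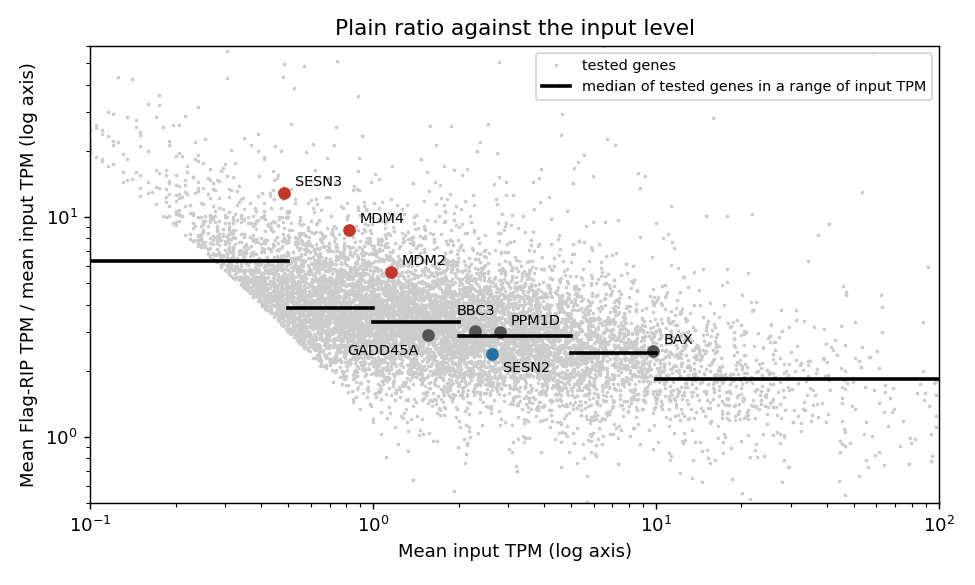
Ratio of mean Flag-RIP TPM to mean input TPM against mean input TPM (both log axes; genes beyond the axes are not drawn) for the tested genes (grey) and the 8 tested genes of the set, with the median ratio in each range of input TPM as a bar. The sloping lower left edge is the filter of a mean of 1 TPM. SESN3, MDM4 and MDM2 lie at 12.9, 8.73 and 5.61, above the bars of their ranges, and BAX lies at 2.47 beside its bar of 2.40.

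The genes also differed in the length of genome they span. GADD45A (3.13 kb), BAX (6.92 kb), BBC3 (12 kb) and SESN2 (23 kb) are the shortest, and each had a ratio below the median of 3.32. Of the longer tested genes, MDM4 (41.7 kb), MDM2 (42.5 kb) and SESN3 (67 kb) had ratios above it, and PPM1D (66.1 kb) did not. SESN1 (111 kb) had a ratio of 4.03 but fell below the filter, so it is not among the tested genes that give this median. Across 8998 tested protein-coding genes the ratio rose with the span (Spearman rho 0.32, across genes of the same 4 libraries, which are not independent replicates). Its median was 2.53 in the 2250 genes with the shortest spans and 3.79 in the 2250 with the longest. Its part in the differences between the 9 genes was not tested. In the RefSeq table, MDM2 overlaps CPM, and SESN1 overlaps ARMC2. Both overlapping genes were at 0.36 TPM or less in every library, which is below MDM2 throughout but, for ARMC2, near the level of SESN1. The microRNA gene MIR3190 lies within BBC3 and had 8.36 TPM in Flag-RIP replicate 1 and 0 in the other libraries. How reads were divided there is not known.

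The wider p53 pathway, a list of 90 genes drawn up from background knowledge that includes the 9, was called in shares near those of all tested genes. Its 72 tested genes held 10 higher and 19 lower calls (13.9% and 26.4%), against 16.4% and 24.4% of all tested genes. Its median centred change was -0.078, against -0.11 over all tested genes. Without the 9 genes, 7 of 64 were higher and 18 lower. Over the list, 22 of the 72 had a mean input below 1 TPM. The counts by role below rest on 7 to 17 genes each, and none was tested as a set.

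Among 13 other regulators of p53, 2 were higher and 3 lower (15.4% and 23.1%, beside 16.4% and 24.4% of all tested genes). HIPK2, a kinase that phosphorylates p53, had 1.12 and 1.81 TPM in the inputs and 13.55 and 6.6 TPM in Flag-RIP, a centred change of 0.79 (limma adjusted p = 0.0328). CHEK1, the checkpoint kinase downstream of ATR, had 0.84 and 1.11 TPM in the inputs and 2.28 and 2.45 TPM in Flag-RIP, a centred change of -0.55 (limma adjusted p = 0.0159). HIPK2 was uneven between the Flag-RIP libraries, as SESN3 was.

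Of 7 other genes of cell cycle arrest, 2 were higher and 2 lower (28.6% each, beside 16.4% and 24.4% of all tested genes). BTG2, an antiproliferative regulator of mRNA deadenylation, had a centred change of 0.62 (1.26 and 2.09 TPM in the inputs, 11.19 and 7.45 in Flag-RIP). CCNG1, cyclin G1, had -0.39 (3.65 and 5.16 TPM, then 9.29 and 9.03). Limma adjusted p-values were 0.0151 and 0.0237.

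Of 12 other apoptosis genes, 1 was higher and 4 were lower (8.33% and 33.3%, beside 16.4% and 24.4% of all tested genes). TP53INP1, a nuclear stress protein, had 0.19 and 0.36 TPM in the inputs and 4.07 and 3.24 TPM in Flag-RIP, a centred change of 0.55 (limma adjusted p = 0.0202). Its plain ratio, 13.3, was close to that of SESN3. Like SESN3, TP53INP1 passed the filter on low values only through its Flag-RIP levels. PMAIP1, which encodes the BH3-only protein NOXA, had 0.55 and 0.89 TPM in the inputs and 1.36 and 1.21 TPM in Flag-RIP, a centred change of -0.90 (limma adjusted p = 0.0061). BBC3, its functional relative, was not called.

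Of 7 DNA repair genes, 1 was higher and 1 lower (14.3% each, beside 16.4% and 24.4% of all tested genes). RRM2B, the p53-inducible subunit of ribonucleotide reductase, rose by 0.67 (0.4 and 0.69 TPM in the inputs, 5.8 and 4.45 in Flag-RIP; limma adjusted p = 0.00554). RRM2B, too, passed the filter on low values only through its Flag-RIP levels. PCNA, the sliding clamp of DNA replication, had -0.88 (6.42 and 8.44 TPM, then 9.07 and 11.68; limma adjusted p = 0.0048).

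Of 8 metabolic and redox genes beside the sestrins, 0 were higher and 4 lower by limma, beside 16.4% and 24.4% of all tested genes. At an unadjusted limma p under 0.05 the counts were 0 and 5, against 20% and 31.1% of all tested genes. Over the 64 tested list genes outside the 9, the unadjusted counts were 9 and 22. With 8 genes, no conclusion about this role is drawn. GPX1, glutathione peroxidase, had 47.39 and 53.08 TPM in the inputs and 67.74 and 67.18 TPM in Flag-RIP, a centred change of -0.90 (limma adjusted p = 0.00748).

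Of 17 other targets, 1 was higher and 4 lower (5.88% and 23.5%, beside 16.4% and 24.4% of all tested genes). LIF, a cytokine, had a centred change of 0.67 (2.81 and 4.99 TPM in the inputs, 18.87 and 17.06 in Flag-RIP; limma adjusted p = 0.0073). SERTAD1, a cofactor of cyclin-dependent kinase 4, had -1.10 (3 and 3.84 TPM, then 4.46 and 3.77; limma adjusted p = 0.000755). SERTAD1 was the lowest of the 72 tested genes and its groups overlapped in TPM as deposited.

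**Figure D5:**
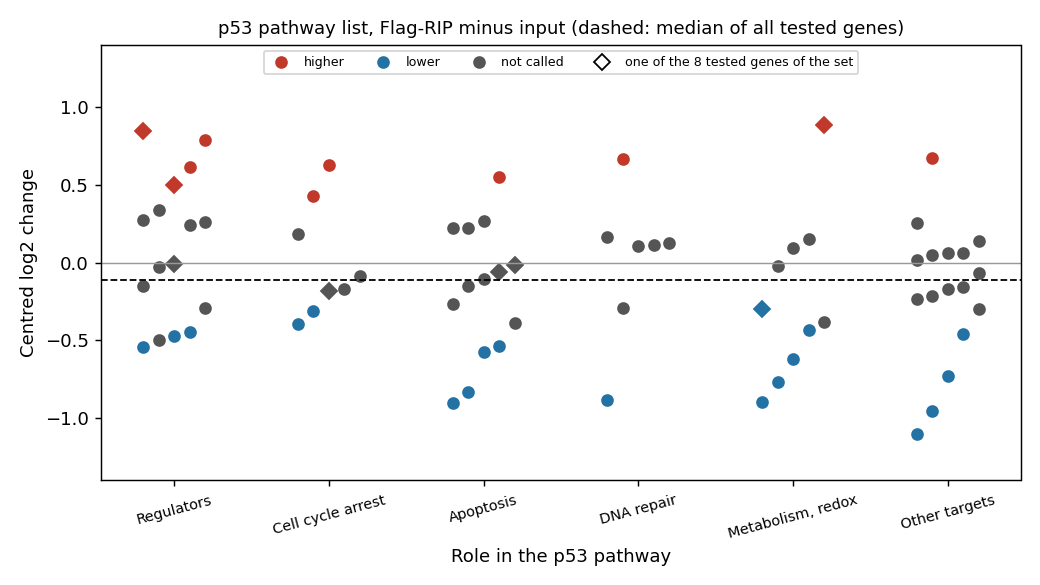
Centred log2 change of the 72 tested genes of the p53 pathway list by role, coloured by the limma call (higher, lower, not called), with the tested genes of the set as diamonds and the median of all tested genes as a dashed line. SESN3 at 0.89 and MDM4 at 0.84 are the highest of the list, and SERTAD1 at -1.10 is the lowest.

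The calls over the list depended on the input libraries as those of the 9 genes did. Without input replicate 1, 0 of the 72 were higher and 1 was lower by limma, and without input replicate 2, 3 and 8. Over all tested genes the counts were then 332 higher and 322 lower, and 747 and 987, against 1703 and 2545 with all libraries. Leaving out a replicate leaves a lone library in its group, which is assumed to vary like the other group.

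The genes nearest to MDM4 over the 4 libraries, by Euclidean distance of centred log2(TPM + 1), were VAMP7 (distance 0.085), NFAT5 (0.13) and KIAA0355 (0.18). VAMP7, a vesicle fusion protein gene, had 0.6 and 1.03 TPM in the inputs and 8.72 and 5.93 TPM in Flag-RIP. Those nearest to SESN3 were MPC1 (0.15), TGFA (0.28) and NPIPB4 (0.32). MPC1, a subunit of the mitochondrial pyruvate carrier, had 0.38 and 0.5 TPM in the inputs and 7.79 and 3.84 TPM in Flag-RIP. NPIPB4 belongs to a family of near-identical copies, so its value is uncertain. With 4 libraries in 2 groups, this likeness is a description only.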

How the data were processed

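RNA was sequenced from 2 input and 2 Flag-RIP libraries. The authors deposited 1 table of TPM values. Per the submitters' processing notes, STAR, RSEM version 1.2.31 and the GRCh38 build were used. Annotation, read filters and strandedness: not given in the sources used here. The unit keeps no read depth, so no counting interval is given.

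The 92 spike-in rows were not themselves tested and served only for 1 alternative scaling. The filter kept the 10415 of 26830 genes whose TPM averaged 1 or more across libraries. On log2(TPM + 1), each library was shifted to a common median, and limma 3.58.1 (R 4.3.3; a linear model with moderated variances that follow a trend with the mean) compared Flag-RIP with input, two-sided, with Benjamini-Hochberg adjustment over all tested genes and a threshold of 0.05. All adjusted p-values of single genes come from this procedure or its named alternatives. In simulated data with few changed genes and a spread set by level alone, it made somewhat more false calls than its threshold allows. The data here differ in both, so that rate is only a caution for calls just past the threshold, such as that of SESN2. The pseudocount shrinks the folds of scarce genes, so plain ratios of mean TPM are given too.

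The members, the pathway list of 90 genes and the tests were chosen with earlier results of these data known. The transcript of p53 itself is not reported here. COP1 was matched through its older symbol RFWD2. Genes named from the list are, per role, the largest increase and the largest decrease past the threshold. QKI is named as a check of the construct. For the 2 members with the largest change past the threshold, the 3 nearest genes are named. Alternatives were pseudocounts of 0.1 and 5, no filter, a mean TPM of at least 5, 4 other scalings, 2 other variance models, each library left out, and a replicate block.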

Additional observations from a re-analysis of the deposited data

How the results depend on the processing

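The scaling decided most counts. As deposited, with the 20 most abundant rows left out and with the spike-ins, the library medians were not made equal. The median change of all tested genes was then 1.2, 0.446 and -0.758, so calls and signs in these settings include that shift. Over all tested genes, 1703 were higher and 2545 lower with a common median, against 9608 and 33 as deposited, 3748 and 730 with the 20 most abundant rows left out, and 319 and 6306 when scaled to the spike-ins. With no filter they were 5590 and 10238, and with the filter raised to a mean TPM of 5 they were 1025 and 1171. For the 8 tested members, 3 higher and 1 lower became 8 and 0 as deposited, 1 (SESN3) and 5 with the spike-ins, 5 and 0 of 9 with no filter, and 0 and 0 of the 2 tested at a mean of at least 5. The count of lower members was 0 with a pseudocount of 5, with the 20 rows left out, without a trend and with the replicate block. For the pathway list, 10 higher and 19 lower became 66 and 0 as deposited, 23 and 5 with the 20 rows left out, 2 and 47 with the spike-ins, 35 and 11 with no filter and 3 and 11 at a mean of at least 5, and with a pseudocount of 5 the higher count was 18. The list's median of -0.078 was -0.153 with a pseudocount of 0.1, -0.00693 with 5, 0.34 with no filter, -0.143 at a mean of at least 5, 1.24 as deposited, -0.0427 after quantile normalization, 0.307 with the 20 rows left out and -0.913 with the spike-ins. The causes were not tested.

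Leaving out 1 library at a time gave 332 to 2294 higher and 322 to 3184 lower genes, 0 to 3 higher and 0 to 1 lower members, 0 to 14 higher and 1 to 25 lower list genes, and a list median of -0.103 to -0.0582. The low ends of the counts are without input replicate 1. Signs turned as deposited for PPM1D (1.31), GADD45A (1.13), BAX (1.25), BBC3 (1.30) and SESN2 (1.02). With no filter, where every member of the main test moved up by the same amount, signs turned for the same 5 genes (0.55, 0.37, 0.49, 0.54 and 0.26). They turned with the 20 rows left out for PPM1D (0.30), GADD45A (0.29), BAX (0.051) and BBC3 (0.37), with a pseudocount of 5 for PPM1D (0.11), BAX (0.33) and BBC3 (0.048), and with the spike-ins for MDM2 (-0.13). Leaving out 1 library turned those of PPM1D, BAX and BBC3, to at most 0.125. MDM4 and SESN3 stayed above 0 in every alternative in which they were tested, with 0.36 to 2.16 and 0.33 to 2.20. Without a trend, SESN3 (limma adjusted p = 0.0514) and SESN2 (0.0754) did not pass.

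The labels do not say whether libraries of the same number share a lysate, and the numbers were not taken as pairs in the main fit. Libraries of the same number did not deviate together (correlation across genes -0.067). This rests on a single difference per group and cannot decide whether they are pairs. With the replicate block, 1720 genes were higher and 2457 lower, 3 and 0 members, and 10 and 17 list genes. Of the 8 members, SESN2 (adjusted p = 0.0705) was the only one whose call it changed. The depth behind each TPM is unknown, which limits MDM4, SESN1 and SESN3 most, as their inputs were at or below 1.1 TPM.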
